A study of Mus musculus with 8 samples.

Results

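The 8 arrays of the series measured RNA from mandibular molar tooth germs of mouse embryos, and the comparison described here sets the 4 arrays titled biological replicate 1 against the 4 titled biological replicate 2. All 8 of 8 arrays are used, and each injection group gives 1 array to each side, so the comparison runs across the treatments. Pregnant ICR mice, an outbred stock, received a single intraperitoneal injection at embryonic day 14, and the tooth germs were dissected from the mandibles 24 hours later. The injections were 5E1 (10 mg/kg), an antibody that binds the signalling protein Shh, 40-1a (10 mg/kg), a control antibody against β-galactosidase, cyclopamine (10 mg/kg), an antagonist of the Hedgehog pathway protein Smo, and PBS (1 ml). The labels name no transgene or mutant allele and give no vehicle for cyclopamine. Nor do they say whether a replicate was 1 litter or a pool, or what arrays of the same number have in common, and p-values here cover the spread among these 8 arrays, which may be technical.

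A molar tooth germ of this age is an epithelial bud growing into cap shape, wrapped around condensed neural-crest mesenchyme. A cluster of epithelial cells, the enamel knot, secretes Shh, FGF, BMP and WNT proteins that pattern the tooth, and the mesenchyme answers with transcription factors such as Msx1 and Pax9. The germ lies under the oral epithelium, in connective tissue with vessels, and close to the muscles of tongue and jaw. In RNA from such a piece of tissue, a change in the number of cells of a type and a change in the RNA per cell cannot be told apart.

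The replicate 2 arrays held higher signals of epithelial genes and lower signals of mesenchymal, connective tissue, vessel and leukocyte genes. All 33 measured genes of dental and oral epithelium were higher on average in replicate 2, with a median log2 difference of 0.69. Dental mesenchyme had a median of -0.59, fibroblast and matrix genes -0.49, endothelium -0.58 and leukocytes -0.48, while the median of all 13008 genes tested was -0.01. Skeletal muscle and the outer layers of oral epithelium had larger medians, 0.85 and 1.04. The shifts of dental mesenchyme and outer oral epithelium were not seen in the PBS pair (medians of 0.01 and 0.00), and that of skeletal muscle ran the other way there (-0.75).

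Differences are on the scale of log2(signal + 9), as replicate 2 minus replicate 1 averaged over the 4 injection groups, and a gene is called where limma's Benjamini-Hochberg adjusted p over all 13008 genes is under 0.05. By this rule 757 genes (5.82%) were called, 284 higher (2.18%) and 473 lower (3.64%) in replicate 2. Their adjusted p-values were all close to the threshold, the smallest being 0.0204, so the number of calls moved widely with the settings. It was 0 when the arrays were centred on their medians, when the probe sets of a gene were averaged, when the variance model had no trend, and when any 1 of the 4 antibody arrays (5E1 or 40-1a) was left out, and it rose to 1084 higher and 861 lower without cyclopamine replicate 1 and to 1075 and 866 without cyclopamine replicate 2. Leaving out 1 array takes its partner out of the difference too. At an unadjusted p under 0.05 there were 3596 genes (27.6%), and 2104 to 4556 when 1 array was left out. The calls named below therefore hold for the fit as described and not for each of those settings. Of 61 called genes followed one by one, 51 were still called without either PBS array (Shh, Mki67, Samd10, Zc3h3, Dpysl5, Fcgbp, Wnt6, Fli1, Abcc9 and Snai2 were not, at adjusted p-values of up to 0.111). Without cyclopamine replicate 1 and 2, 53 and 52 were, and Rgs5, Zc3h3, Egr3, Rspo3, Pappa2, Aqp3, Tpm2 and Mylk were lost in both, with Fcgbp lost without replicate 2.

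The direction of single genes across the injection groups gives the plainest view of the data. A gene was higher in replicate 2 in all 4 groups in 1857 cases (14.3%) and lower in all 4 in 2445 (18.8%). For 810 genes (6.23%) all replicate 2 arrays lay above all replicate 1 arrays, and for 1279 genes (9.83%) they all lay below. Every one of the 757 called genes had the same sign in the 4 groups, and 580 of them did not overlap between the numbers. The calls rest on the same 4 within-group differences, so these counts are no separate support for them. Of 544 called genes with more than 1 probe set, every probe set had the same sign in 336, against 3407 of 7836 for all such genes tested. A difference of 2-fold or more was seen in 40 of the genes called higher and 116 of those called lower.

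**Figure D1:**
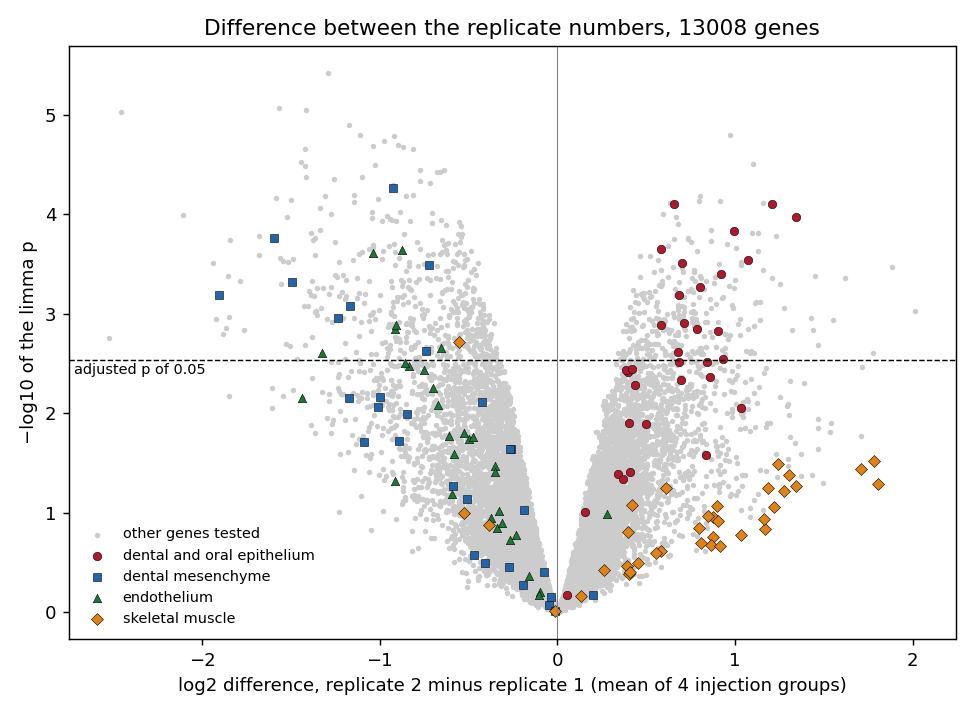
Each point is 1 of the 13008 genes, with the log2 difference (replicate 2 minus replicate 1) on the horizontal axis and −log10 of the limma p on the vertical axis; the dashed line marks an adjusted p of 0.05. The 33 epithelial genes all lie to the right of 0 and 28 of 29 dental mesenchyme genes to the left, while 35 of 36 skeletal muscle genes lie below the line despite differences of up to 1.81.

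The epithelium list holds keratins, junction proteins, basement membrane proteins and epithelial regulators, and 33 of its 36 genes were measured and tested. Of these, 16 were called higher and none lower, 25 were higher in all 4 injection groups and 9 did not overlap. The shares over all genes were 2.18% called higher, 14.3% higher in all 4 groups and 6.23% higher without overlap. The per-group medians were 0.98 in 5E1, 0.85 in 40-1a, 0.40 in cyclopamine and 0.37 in PBS, so each group had the same direction. The summed signal of the list on the replicate 1 arrays was 110400 (5E1), 111400 (40-1a), 147900 (cyclopamine) and 109900 (PBS). On the replicate 2 arrays it was 197000, 192200, 196400 and 132600 in the same order. Cyclopamine replicate 1 was thus the highest of its number and PBS replicate 2 the lowest of its own.

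Epcam, a cell adhesion molecule found on epithelial cells, had signals of 2896, 3097, 3168 and 2907 in replicate 1 of 5E1, 40-1a, cyclopamine and PBS, and 5169, 5043, 4830 and 4057 in replicate 2. The numbers did not overlap, and Epcam rose 1.58-fold (log2 0.66, SE 0.09, adjusted p = 0.0234). Jup, which encodes plakoglobin of the desmosomes and adherens junctions, had signals of 1274, 1330, 2667 and 1357 in replicate 1 and 4422, 4747, 4441 and 2782 in replicate 2. It rose 2.54-fold (log2 1.35 ± 0.19, SE, adjusted p = 0.0246), with the cyclopamine array again the highest of replicate 1. Esrp2, a splicing regulator of epithelial cells, rose 2.31-fold (adjusted p = 0.0234), the claudin Cldn7 2.11-fold (0.0272) and the protease inhibitor Spint1 2.00-fold (0.0266). Krt14, the keratin of basal epithelial cells, had signals of 10080 to 14880 in replicate 1 and 14230 to 19730 in replicate 2, and rose 1.50-fold (adjusted p = 0.0266). The other 10 called members were Krt17, Perp, Lama5, Col17a1, Pkp1, Pkp3, Ap1m2, St14, Cdh3 and Sfn.

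Some widely used epithelial genes differed little. Cdh1, which encodes E-cadherin, had signals of 4181, 4093, 5195 and 4641 in replicate 1 and 6581, 6301, 6225 and 4132 in replicate 2. Its PBS pair ran the other way, and Cdh1 was not called (log2 0.34, SE 0.14, adjusted p = 0.162). Trp63, a master regulator of stratified epithelia, had a log2 difference of 0.16 (adjusted p = 0.263) and Grhl2 one of 0.05 (0.815). The members thus spread from 0.05 (Grhl2) to 1.35 (Jup).

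**Figure D2:**
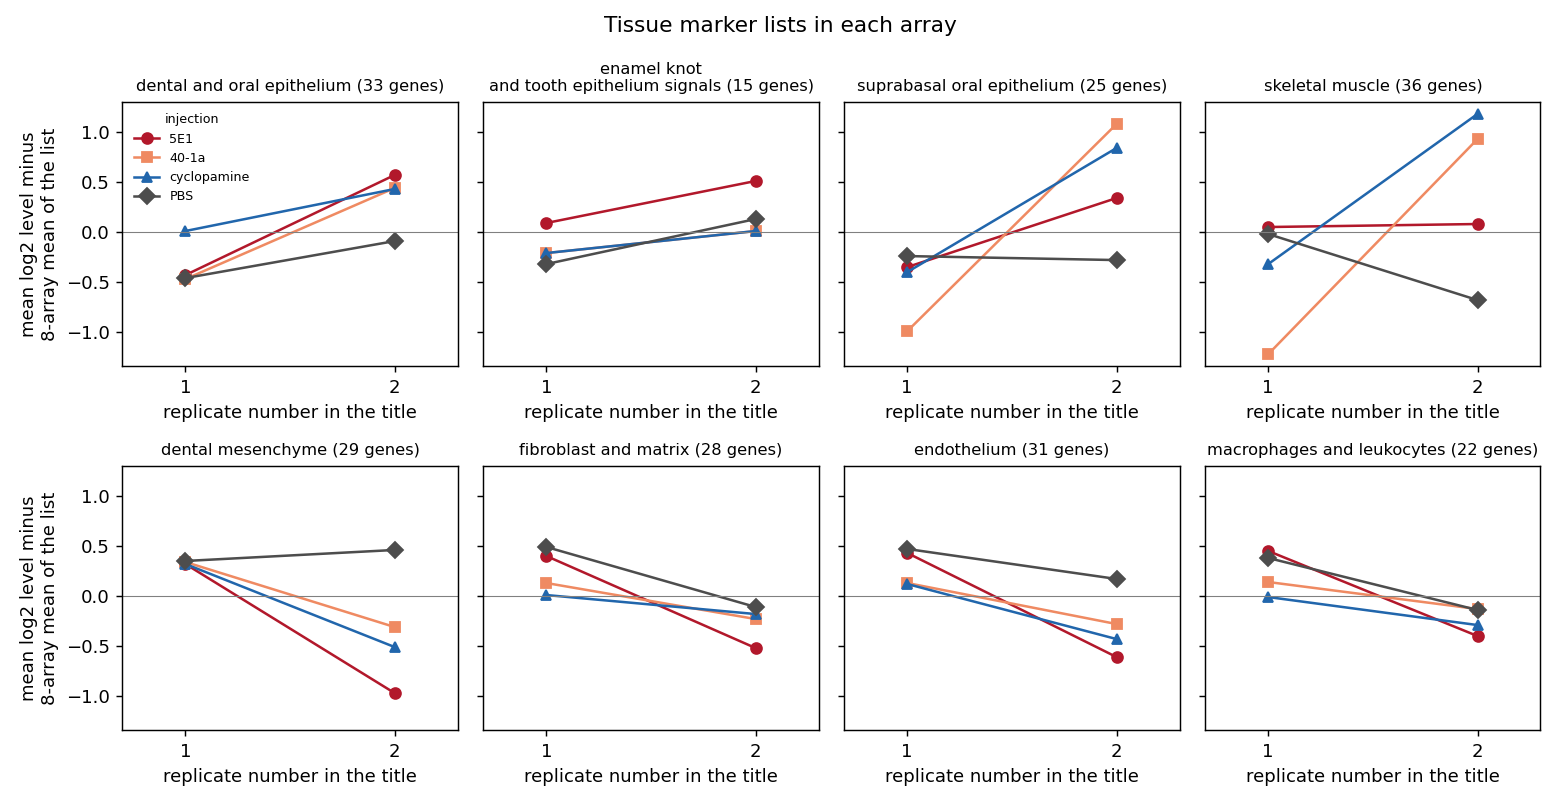
Each panel shows 1 marker list, with the replicate number on the horizontal axis and the mean log2 level of its tested genes, minus the list's mean over the 8 arrays, on the vertical axis; lines join the 2 arrays of an injection group. The epithelium lines all rise, from -0.43 to 0.57 in 5E1 for example, the endothelium lines all fall, and the skeletal muscle lines rise in 40-1a and cyclopamine, stay level in 5E1 and fall in PBS.

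Promoter sequences were searched for the hexamer bound by repressors of the Zeb and Snail families, of which Zeb2 and Snai2 are called below and Zeb1 and Snai1 are not. The motif was searched as CAGGTG and CACCTG, which are reverse complements and so cover both strands, within the 300 bases that RefSeq's table (GRCm38.p6) gives for a gene, from 250 before to 50 after the start site. It was found in 13 of 17 epithelial list genes with 1 listed promoter (76.5%) and in 5 of 20 dental mesenchyme genes (25.0%). Within the epithelial list the motif did not go with the calls. Of the called members, Epcam, Ap1m2, Lama5 and Sfn held it, and Jup, Spint1, Krt14 and Col17a1 did not. Every member with 1 listed promoter that was not called held it (Krt5, Krt8, Krt18, Cldn3, Cldn4, Elf3, Dsp, Spint2 and Rab25). Of all 8315 tested genes with 1 listed promoter, 1482 (17.8%) held it, as did 44 of 178 genes called higher (24.7%) and 36 of 269 called lower (13.4%). This search was chosen after the values were seen and carries no test, and a match is not a measured binding site. The 250 bases before the start site are shown for 3 called epithelial genes with more than 1 match, 5′ to 3′ on the gene's strand, with the matches in capitals. Epcam (chr17:87635729-87635978, plus strand) has 2, Ap1m2, an adaptor subunit of epithelial sorting (chr9:21312334-21312583, minus strand), has 4, and Lama5, a laminin chain of the basement membrane (chr2:180225860-180226109, minus strand), has 2.
Epcam: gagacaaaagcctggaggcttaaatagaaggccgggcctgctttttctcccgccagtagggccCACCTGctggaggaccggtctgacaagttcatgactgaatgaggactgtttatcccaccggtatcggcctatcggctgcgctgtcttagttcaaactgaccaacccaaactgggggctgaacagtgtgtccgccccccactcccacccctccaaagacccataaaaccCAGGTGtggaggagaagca
Ap1m2: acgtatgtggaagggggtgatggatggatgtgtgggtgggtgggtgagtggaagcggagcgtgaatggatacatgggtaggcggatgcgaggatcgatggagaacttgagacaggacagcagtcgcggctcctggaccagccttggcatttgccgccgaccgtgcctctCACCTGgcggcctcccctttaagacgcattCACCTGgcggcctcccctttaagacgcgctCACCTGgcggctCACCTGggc
Lama5: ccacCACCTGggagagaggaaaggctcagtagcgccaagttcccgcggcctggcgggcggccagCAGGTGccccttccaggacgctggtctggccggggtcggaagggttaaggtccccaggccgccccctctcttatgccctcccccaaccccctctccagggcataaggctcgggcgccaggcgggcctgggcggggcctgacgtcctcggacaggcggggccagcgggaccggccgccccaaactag

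Zeb2 and Snai2, repressors that bind this hexamer, were both called lower. They, Zeb1 and Snai1 were picked after their values were seen. A link between these repressors and the epithelial genes was not tested. Zeb2 had signals of 755.9, 886.9, 676.5 and 1044 in replicate 1 of 5E1, 40-1a, cyclopamine and PBS, and 238.9, 326.3, 222.8 and 497.5 in replicate 2. All replicate 2 arrays lay below all replicate 1 arrays, and Zeb2 fell 2.67-fold (log2 -1.42, SE 0.14, adjusted p = 0.0204), with all 5 of its probe sets in the same direction. Snai2 fell 1.33-fold (log2 -0.41, SE 0.08, adjusted p = 0.0361), but its 2 probe sets disagreed, and the other gave 0.16 in the opposite direction. Zeb1 was not called (log2 -0.65, SE 0.23, adjusted p = 0.118), and its cyclopamine pair was higher in replicate 2. Snai1 was not called either (log2 -0.27, adjusted p = 0.555).

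The signals of the enamel knot and the tooth epithelium moved with the epithelium in part. Of 15 tested genes 6 were called higher (Shh, Fgf20, Wnt10a, Wnt6, Cdkn1a and Sp6), none lower, and the median was 0.44. The share called higher over all genes was 2.18%. Without either PBS array 3 of the 15 were called higher and 1 lower. Of all 13008 genes, 279 were called higher and 433 lower without PBS replicate 1, and 285 and 452 without replicate 2. Shh, the Hedgehog ligand that 5E1 binds, had signals of 7388, 4701, 4549 and 4562 in replicate 1 of 5E1, 40-1a, cyclopamine and PBS, and 9306, 7117, 6134 and 6443 in replicate 2. It rose 1.38-fold (log2 0.46, SE 0.08, adjusted p = 0.0295), and the 5E1 array was the highest of both numbers. Fgf20, an FGF of the enamel knot, had signals of 325.3, 168.5, 141.9 and 143.2 in replicate 1 and 778.6, 303.3, 240.2 and 237.2 in replicate 2, and rose 1.82-fold (adjusted p = 0.0338). Wnt10a rose 1.74-fold (adjusted p = 0.0295), Wnt6 1.63-fold (0.0355) and Cdkn1a, the cell cycle inhibitor of enamel knot cells, 1.61-fold (0.0295). Fgf4, a marker of the knot, was at 76.2 to 135.3 in replicate 1 and 104.9 to 165.8 in replicate 2 and was not called (adjusted p = 0.482). Bmp2 and Lef1 were lower in replicate 2 in all 4 groups, at log2 -0.23 and -0.62, without a call (adjusted p = 0.302 and 0.0524).

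The outer, differentiating layers of oral epithelium differed by more, but unevenly. All 25 tested genes were higher on average, 12 in all 4 groups, and 3 were called (Lypd3, Grhl3 and Aqp3). For all genes tested the shares were 14.3% higher in all 4 groups and 2.18% called higher. The per-group medians were 0.86 in 5E1, 2.01 in 40-1a, 1.14 in cyclopamine and 0.00 in PBS, and the overall median of 1.04 was 0.67 without either 40-1a array. Krt13, the keratin of the inner lining of the mouth, had signals of 9702, 5294, 10170 and 10300 in replicate 1 and 17590, 25070, 23010 and 10310 in replicate 2. The PBS pair was level, the 40-1a pair spanned the whole range, and Krt13 was not called (log2 1.07, SE 0.30, adjusted p = 0.0705). Lypd3, a surface protein of stratified epithelium, had signals of 323.0, 165.6, 545.5 and 328.4 in replicate 1 and 823.8, 1316, 1176 and 601.5 in replicate 2, and rose 2.93-fold (adjusted p = 0.0360). Grhl3, a regulator of barrier formation, rose 2.21-fold (adjusted p = 0.0329) and the water channel Aqp3 1.94-fold (0.0414). Without either PBS array 16 of the 25 genes were called higher. The totals over 13008 genes were then 279 without PBS replicate 1 and 285 without replicate 2.

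The dental mesenchyme list ran the other way in 3 of the 4 groups. Of 29 tested genes 8 were called lower and none higher, 12 were lower in all 4 groups and 28 were lower on average. Over all genes 3.64% were called lower and 18.8% were lower in all 4 groups. The per-group medians were -1.17 in 5E1, -0.59 in 40-1a, -0.88 in cyclopamine and 0.01 in PBS. The overall median of -0.59 was -0.38 without either 5E1 array and -0.94 without either PBS array. Without a PBS array 14 genes of the list were called lower. The totals over 13008 genes were then 433 without PBS replicate 1 and 452 without replicate 2. The summed signal of the list was 90390 to 99390 on the 4 replicate 1 arrays, and 47590, 66110, 59840 and 97610 on the replicate 2 arrays of 5E1, 40-1a, cyclopamine and PBS. The replicate 1 arrays were alike, and the PBS array of replicate 2 sat with them.

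Pax9, a transcription factor needed for teeth to pass the bud stage, had signals of 2024, 2119, 1977 and 2059 in replicate 1 and 910.3, 1096, 951.6 and 1397 in replicate 2. It fell 1.90-fold (log2 -0.92, SE 0.12, adjusted p = 0.0234) without overlap. Prrx1, a homeobox factor of craniofacial mesenchyme, had signals of 9124, 8308, 6712 and 7921 in replicate 1 and 1905, 2221, 2093 and 5373 in replicate 2. It fell 3.03-fold (log2 -1.60, SE 0.24, adjusted p = 0.0266), and the PBS array stood above the other 3 of replicate 2. Tfap2b, a neural crest factor, fell 3.75-fold (adjusted p = 0.0315), Inhba, which encodes the activin subunit that dental mesenchyme secretes, 2.82-fold (0.0295), Lhx8 2.25-fold (0.0336) and the Wnt antagonist Sfrp2 1.65-fold (0.0272). Dlx1 and Wnt5a were the other called members.

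Some central factors of the tooth mesenchyme were not called. Msx1, which maintains Bmp4 in the mesenchyme, had signals of 2987, 2614, 6746 and 2452 in replicate 1 and 1426, 2257, 2279 and 5649 in replicate 2. Cyclopamine replicate 1 and PBS replicate 2 were the highest of the 8, and the difference was -0.41 (SE 0.38, adjusted p = 0.522). Barx1, a homeobox factor of molar mesenchyme, ran from -1.17 in 5E1 to 0.96 in PBS and averaged -0.20 (adjusted p = 0.709). Dlx2, Dlx5 and Dlx6 were between -0.04 and -0.01.

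Connective tissue genes were lower in replicate 2 in each injection group. Of 28 tested genes of fibroblasts and matrix 12 were called lower and 1 higher, and 19 were lower in all 4 groups. The shares of all genes were 3.64% called lower, 2.18% called higher and 18.8% lower in all 4 groups. The group medians were -0.98, -0.43, -0.35 and -0.48 in 5E1, 40-1a, cyclopamine and PBS. Aspn, a small proteoglycan, had signals of 5628, 4107, 3582 and 6494 in replicate 1 and 1968, 1651, 2034 and 3135 in replicate 2, and fell 2.25-fold without overlap (log2 -1.17, SE 0.12, adjusted p = 0.0204). Postn, which encodes periostin, had signals of 15360 to 23870 in replicate 1 and 7360 to 15010 in replicate 2 and fell 2.17-fold (adjusted p = 0.0266). Ogn fell 2.06-fold and Thbs2 1.89-fold (both 0.0266). The abundant fibrillar collagens were not called, with Col1a1 at log2 -0.13 (SE 0.12, adjusted p = 0.509) and Col3a1 at -0.50 (SE 0.14, 0.0693). The called member that rose was Fbln1, a fibulin, with 3707 to 4500 in replicate 1 and 5259 to 6184 in replicate 2.

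**Figure D3:**
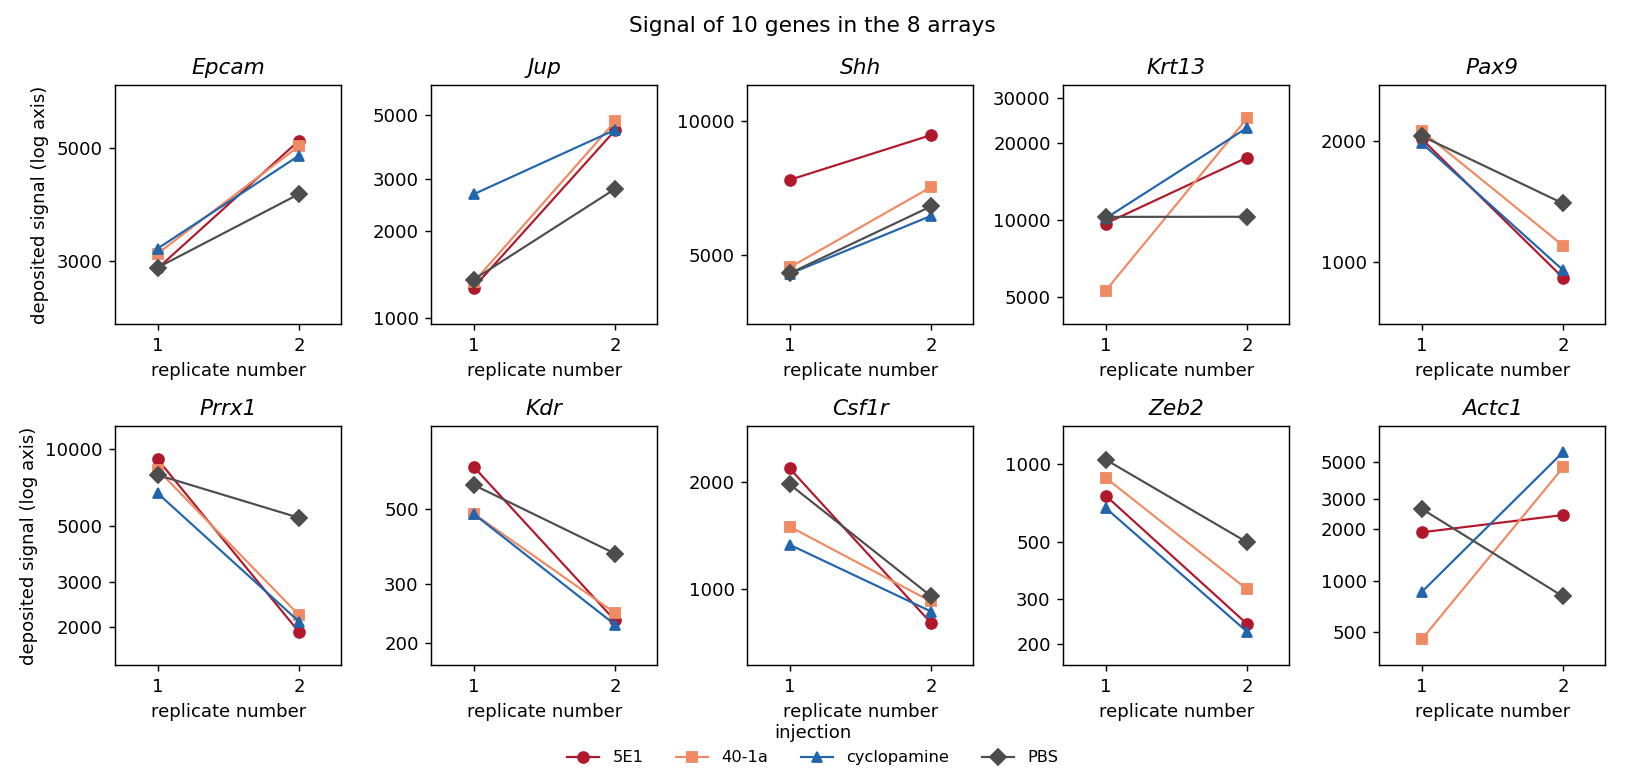
Deposited signal (log axis, scaled per panel) of 10 genes against the replicate number, with lines joining the 2 arrays of an injection group. Epcam, Jup and Shh rise and Pax9, Prrx1, Kdr, Csf1r and Zeb2 fall in all 4 groups, whereas Krt13 is level in PBS (10300 and 10310) and Actc1 falls there from 2642 to 807.8.

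Of 31 tested endothelial genes 20 were lower in replicate 2 in all 4 groups, and 6 were called lower and none higher. Among all genes tested 18.8% were lower in all 4 groups and 3.64% were called lower. The group medians were -1.06, -0.42, -0.49 and -0.33 in 5E1, 40-1a, cyclopamine and PBS, and the overall median of -0.58 was -0.36 without either 5E1 array. Without cyclopamine replicate 2, 10 were called lower and 1 higher, where 866 of all 13008 genes were called lower and 1075 higher. Kdr, a receptor for VEGF, had signals of 668.2, 485.0, 484.2 and 590.2 in replicate 1 and 233.7, 246.0, 227.1 and 369.0 in replicate 2. It fell 2.06-fold without overlap (log2 -1.04, SE 0.16, adjusted p = 0.0266). Aplnr, the apelin receptor, fell 1.84-fold (adjusted p = 0.0266), Plvap of fenestrated capillaries 1.89-fold (0.0382), Sox17 1.87-fold (0.0367) and Fli1 1.57-fold (0.0449), and Mmrn2 was the sixth. Pecam1 was lower in all 4 groups but was not called (log2 -0.58, SE 0.21, adjusted p = 0.129), and Cdh5, which encodes VE-cadherin, was at -0.16 (SE 0.19, 0.630).

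In the list of smooth muscle and pericytes, members differed in direction. Of 13 tested genes, 4 pericyte or mural genes were called lower (Rgs5, Pdgfrb, Abcc9 and Mylk), against 3.64% of all genes. Without either cyclopamine array 2 genes of the list were called lower and 1 higher. Of all 13008 genes, 861 were called lower and 1084 higher without cyclopamine replicate 1, and 866 and 1075 without replicate 2. The list median was -0.07, and -0.24 to -0.25 without any 1 array of 40-1a or cyclopamine. Rgs5 had signals of 1502, 1734, 2635 and 1686 in replicate 1 and 347.1, 741.0, 465.7 and 1594 in replicate 2, so the PBS pair was nearly level, and it fell 2.76-fold (adjusted p = 0.0493). Pdgfrb, the PDGF receptor of pericytes and fibroblasts, fell 2.64-fold (adjusted p = 0.0314). The contractile genes Acta2 (log2 -0.06, SE 0.16) and Tagln (-0.26, SE 0.11) were not called, and Notch3 was at 0.44 (adjusted p = 0.0794).

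Leukocyte genes were lower as well, with 11 of 22 tested genes lower in all 4 groups, none higher in all 4, and 3 called lower (Csf1r, Mpeg1 and Ctss). Over all genes tested 18.8% were lower in all 4 groups and 3.64% were called lower. Without either PBS array 1 leukocyte gene was called lower. Of all 13008 genes, 433 were called lower without PBS replicate 1 and 452 without PBS replicate 2. Csf1r, the growth factor receptor of macrophages, had signals of 2187, 1501, 1335 and 1973 in replicate 1 and 804.5, 924.7, 866.6 and 957.0 in replicate 2. It fell 1.93-fold without overlap (log2 -0.95, SE 0.15, adjusted p = 0.0266), although 1 of its 3 probe sets had the other sign. Of 10 tested red blood cell genes none was called, and the embryonic globin gene Hbb-y had 2630 to 7240 in replicate 1 and 865.6 to 2582 in replicate 2 (log2 -1.61, SE 0.42, adjusted p = 0.0646).

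Skeletal muscle genes had wide differences within groups that did not follow the replicate number. Of 36 tested genes none was called higher, and the median of 0.85 combined 0.08 in 5E1, 2.38 in 40-1a, 1.52 in cyclopamine and -0.75 in PBS. It was 0.29 without either 40-1a array, 0.54 without either cyclopamine array and 1.36 without either PBS array. Muscle genes called higher numbered 6 without PBS replicate 1 and 8 without PBS replicate 2. Over all 13008 genes the same settings called 279 and 285 higher. The summed signal of the list in replicate 1 was 13460, 7223, 10140 and 14160 in 5E1, 40-1a, cyclopamine and PBS, and in replicate 2 it was 12920, 24480, 28220 and 8727. The highest sums were those of replicate 2 of cyclopamine and 40-1a and the lowest that of 40-1a replicate 1, while PBS ran the other way and 5E1 was nearly level. Actc1, the actin of embryonic striated muscle, had signals of 1924, 452.3, 858.1 and 2642 in replicate 1 and 2430, 4624, 5695 and 807.8 in replicate 2 (log2 1.17, SE 0.72, adjusted p = 0.327). Myog, a master regulator of muscle differentiation, had 292.7, 116.0, 125.1 and 422.3 in replicate 1 and 410.2, 540.9, 616.1 and 132.7 in replicate 2 (adjusted p = 0.397).

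Tpm2 was the called member of the muscle list, and it fell. Its signals were 4251, 3529, 3461 and 4209 in replicate 1 and 2183, 2661, 2291 and 3532 in replicate 2 (1.47-fold lower, log2 -0.55, SE 0.12, adjusted p = 0.0432). This tropomyosin gene is also expressed in smooth muscle and fibroblasts, and 3 of its 4 probe sets had the same sign. Without cyclopamine replicate 1 it was at -0.54 with an adjusted p of 0.0525.

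Among 6 lists of other cell types of the region, 6 of 47 tested genes were called (12.8%, against 5.82% of all genes). Of 15 tested genes of Schwann cells and nerve 1 was called (Erbb3, higher), of 12 cartilage genes 1 (Col11a1, lower), of 11 osteoblast genes 2 (Omd and Cdh11, lower) and of 3 fat cell genes 2 (Cebpa higher, Lpl lower). None of 2 salivary gland genes and none of 4 melanocyte genes was called. The summed signal was 2370 to 4177 for cartilage and 8335 to 19050 for osteoblasts over the 8 arrays. Among defining markers, Aqp5 and Smgc of salivary gland, Tyrp1 of melanocytes and Adipoq of fat cells lay below the filter level (a signal of 60.3), with medians of 22.3, 30.0, 27.4 and 32.4. The part of these cells in the differences was not tested.

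Of 35 cell cycle genes 1 was called, Mki67, with 2991 to 3399 in replicate 1 and 2267 to 2415 in replicate 2 (1.34-fold lower, adjusted p = 0.0339), and the list median was 0.04. Over all genes 5.82% were called. Without either cyclopamine array 1 cell cycle gene was called higher and 2 lower. None of 22 hypoxia and glycolysis genes and none of 19 ribosomal protein genes was called, with medians of 0.14 and -0.09. Without either cyclopamine array 4 hypoxia and glycolysis genes were called higher and 2 ribosomal protein genes lower. Calls over all 13008 genes rose too, to 1084 higher and 861 lower without cyclopamine replicate 1 and to 1075 and 866 without replicate 2. They were 279 and 433 without PBS replicate 1 and 285 and 452 without PBS replicate 2. The list counts given here for these settings are to be read beside those totals. Of 22 immediate early and heat shock genes none was called, but 5 were called higher without either PBS array, and 2 higher and 1 lower without either cyclopamine array. Egr2 and Egr3, of the same family as Egr1, were not in this list. Both were called lower (log2 -1.85 and -2.52) and are described with the largest falls. Fos, an early response gene, ranged from 455.0 to 4165 over the arrays and was higher in replicate 2 in 3 of 4 groups (log2 1.23, SE 0.45, adjusted p = 0.129). Hspa1a, an inducible heat shock gene, was higher in all 4 (log2 0.70, SE 0.18, adjusted p = 0.0604).

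In the Hedgehog pathway's targets the injection held a larger share of the variation than the number, on more degrees of freedom. Of 17 tested targets 1 was called by replicate number, which is near the 5.82% called over all genes. Without either PBS array 4 were called lower, and without either cyclopamine array 3 lower and 1 higher. Over all 13008 genes, 433 and 452 were called lower without PBS replicate 1 and 2. Without cyclopamine replicate 1 there were 861 lower and 1084 higher, and without replicate 2 there were 866 and 1075. Ptch1, the receptor whose transcription the pathway drives, had signals of 2122, 11320, 9683 and 9611 in replicate 1 of 5E1, 40-1a, cyclopamine and PBS, and 1552, 7180, 5793 and 8474 in replicate 2. Both 5E1 arrays lay below the other 6, and within each group replicate 2 was lower (1.42-fold, log2 -0.51, SE 0.11, adjusted p = 0.0382), though 1 of its 3 probe sets had the other sign. Gli1, another direct target, had no such shift (log2 0.27, SE 0.26, adjusted p = 0.539). Injection held 68.3% of the sum of squares of these genes on 3 degrees of freedom and the replicate number 16.9% on 1.

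Over all genes tested the sum of squares was shared almost evenly, with 31.7% for injection on 3 degrees of freedom, 35.0% for the replicate number on 1, and 33.3% for the rest on 3. The replicate number held 62.5% in dental and oral epithelium, 57.4% in leukocytes, 48.0% in endothelium, 47.8% in fibroblast and matrix genes and 42.5% in dental mesenchyme. In skeletal muscle it held 26.9%, and the rest held 53.9%. These shares are descriptions with no test. The moderated F of limma called 0 genes between the injection groups (131 at an unadjusted p under 0.05), and with the replicate number as a block it called 1 (0.00769%), Ptch1 (adjusted p = 0.0123, with 403 at an unadjusted p under 0.05).

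**Figure D4:**
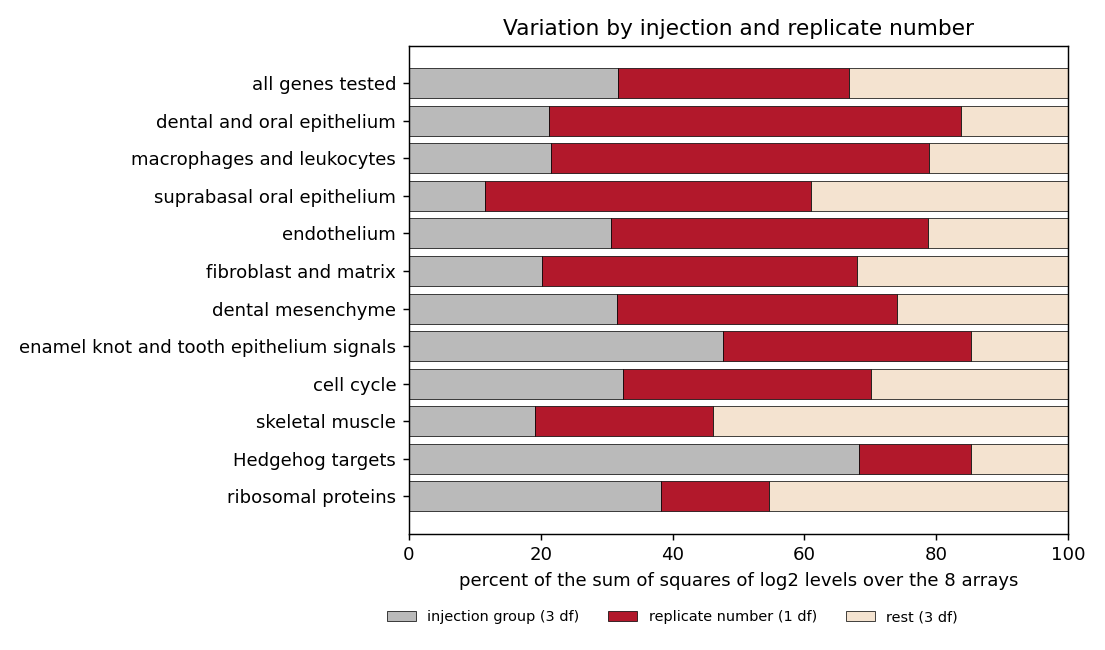
Horizontal bars give, for all genes tested and for 11 lists, the percent of the sum of squares of log2 levels over the 8 arrays held by injection group (grey), replicate number (red) and the rest (light). The red share is 62.5% in dental and oral epithelium and 26.9% in skeletal muscle, and the grey share is 68.3% in Hedgehog targets.

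Pearson's r over the genes tested, computed across genes, which are not independent replicates, was 0.961 to 0.984 (median 0.974) between arrays of the same number. It was 0.946 to 0.970 (median 0.956) between the 2 arrays of an injection group. Arrays that shared neither number nor injection had 0.942 to 0.978 (median 0.956). The 0.978 was that of cyclopamine replicate 1 with PBS replicate 2. On the first principal component, with 44.3% of the variance, replicate 1 of 5E1, 40-1a and PBS lay at -26.6, -31.4 and -26.6, and replicate 2 of 5E1, 40-1a and cyclopamine at 31.6, 27.2 and 26.4. Cyclopamine replicate 1 (0.2) and PBS replicate 2 (-0.8) lay between them, so 2 of the 8 arrays do not take the side of their number.

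The 12 largest called rises included surface and junction protein genes. Lypd2, a Ly6-type surface protein gene, had signals of 142.1, 38.8, 193.2 and 80.3 in replicate 1 and 436.8, 627.4, 502.1 and 230.9 in replicate 2, and rose 4.04-fold (log2 2.01, SE 0.39, adjusted p = 0.0346). The next were Cysrt1 (3.69-fold), Samd10 (3.43-fold), the phosphatase Dusp8 (3.07-fold), Lypd3, Zc3h3, Sytl1, Prom2, Dpysl5, Jup, Fcgbp and Ovol1, from 2.93-fold to 2.42-fold. Ovol1, an epithelial transcription factor, had 231.9 to 363.8 in replicate 1 and 452.9 to 916.0 in replicate 2. None of these 12 overlapped between the numbers, and 1 of the 3 probe sets of Dusp8 had the other sign.

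The largest called falls were Egr3, Lepr, Chsy3, Scg2, Rspo3, Tfap2b, Pappa2, BC034090, Enpep, Egr2, Itgbl1 and Edil3, from 5.74-fold to 3.45-fold. Of the 2 probe sets of Chsy3, 1 had the other sign. Egr3, a transcription factor induced by growth factors, had signals of 5829, 2417, 1402 and 2602 in replicate 1 and 250.0, 328.1, 251.6 and 2098 in replicate 2. The PBS pair differed least, and the fall was 5.74-fold (log2 -2.52, SE 0.54, adjusted p = 0.0410). In Egr2 the falls had the same order of size across the injection groups. Its signals were 1516, 581.1, 414.1 and 593.5 in replicate 1 and 163.4, 132.0, 118.7 and 429.3 in replicate 2. Egr1, of the same family, was not called (log2 -0.21, SE 0.17, adjusted p = 0.444). Lepr, the leptin receptor, had signals of 679.9, 1131, 536.6 and 1367 in replicate 1 and 85.3, 144.0, 82.9 and 482.7 in replicate 2, and fell 5.48-fold (adjusted p = 0.0204) with all 4 of its probe sets in that direction. Rspo3, a secreted amplifier of Wnt signalling, fell 3.80-fold (adjusted p = 0.0355), and Akap12, a kinase anchor gene picked after its values were seen, had the smallest p of all (log2 -1.29, SE 0.11, adjusted p = 0.0204).

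Of 11 RNA and labelling measures none passed an exact test after adjustment (adjusted p of 0.550 to 1), and the 18S signal had the same direction in all 4 groups. The mean signal of 3 probe sets for 18S ribosomal RNA was 348.2, 210.8, 2548 and 447.6 in replicate 1 of 5E1, 40-1a, cyclopamine and PBS, and 64.7, 61.1, 52.9 and 163.7 in replicate 2. It was lower in replicate 2 in 4 of 4 groups (log2 -2.81 ± 1.89, SD, n = 4; exact two-sided permutation p = 0.13, the smallest that 4 pairs allow; adjusted 0.550 over 11 measures). The ratio of 3′ to 5′ signal of the spike-in dap was 1.52 to 1.69 in 3 replicate 1 arrays, 6.05 in cyclopamine replicate 1, and 2.14 to 2.59 in replicate 2. The β-actin ratio was 1.50 in cyclopamine replicate 1 and 1.18 to 1.25 on the other 7 arrays. The median signal of all probe sets was lower in replicate 2 in 3 of 4 groups, with 92.3 to 127.6 in replicate 1 and 100.2 to 103.0 in replicate 2. The part of RNA quality, labelling and array scaling in the differences above was not tested.

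**Figure D5:**
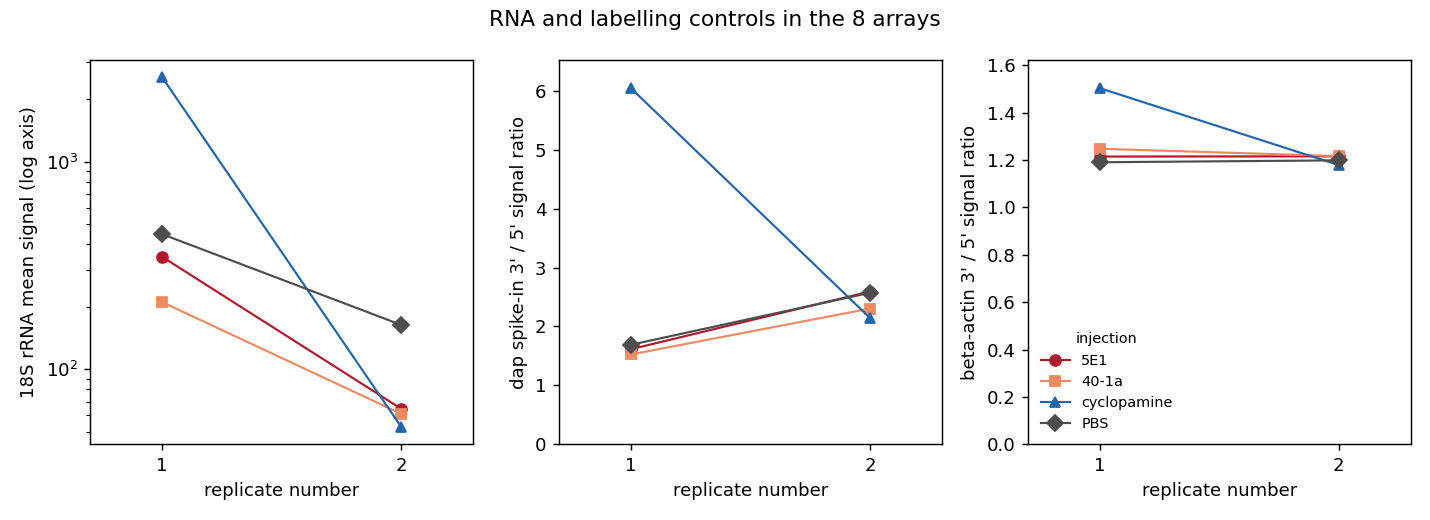
The panels plot the mean 18S ribosomal RNA signal (log axis), the dap spike-in 3′/5′ signal ratio and the β-actin 3′/5′ signal ratio against the replicate number, with lines joining the arrays of an injection group. The 18S signal falls in all 4 groups, and cyclopamine replicate 1 is the highest array in each panel, at 2548, 6.05 and 1.50.

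Sex-linked genes were measured to see whether the share of male embryos differed. Eif2s3y, on the Y chromosome, had signals of 501.9, 451.7, 346.4 and 376.6 in replicate 1 and 752.0, 606.4, 414.2 and 451.3 in replicate 2 (log2 0.37, SE 0.13, adjusted p = 0.109), and Kdm5d was also higher in all 4 groups (log2 0.81, adjusted p = 0.0928). The other of the 2 probe sets of Eif2s3y had the other sign, and with the mean of its probe sets the difference was -0.0763. Xist, transcribed in female cells, depended on the probe set. The brightest of its 3 probe sets ranged from 1855 to 3094 and was at log2 -0.09 (SE 0.11, adjusted p = 0.633). The second had signals of 2526, 2648, 2103 and 3206 in replicate 1 of 5E1, 40-1a, cyclopamine and PBS and 846.5, 976.4, 1167 and 949.9 in replicate 2, without overlap. It was the one used when x and s probe sets were left out, and Xist was then called lower (log2 -1.40, adjusted p = 0.0210). The third, the dimmest, had 174.4 to 372.2 in replicate 1 and 66.3 to 146.4 in replicate 2, also without overlap. Transcripts of both sexes were thus present on each array, and the number of embryos per sample is not stated in the labels.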

How the data were processed

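RNA of 8 samples was measured on 8 Affymetrix mouse arrays, 2 in each of 4 injection groups. Per the labels, 5 µg of RNA was labelled with biotin as cRNA. The deposited table holds linear probe set intensity made by the authors with MAS5 (version not stated) per the submitters' processing notes. The mean signal trimmed by 2% was 500 on every array, so differences are relative to the whole array. Of 45101 probe sets, 34945 named 1 gene in the annotation of 2016. The probe set with the highest mean was kept for each of 18193 genes, and 5185 genes below the 40th percentile (log2 6.12) were left out, leaving 13008. Fold changes on the log2(signal + 9) scale understate those of low genes.

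limma 3.58.1 in R 4.3.3 (lmFit, eBayes with trend) fitted injection group plus replicate number, with 3 residual degrees of freedom. The number of arrays limits the precision. Exact sign-flip permutation tests were used for the RNA controls. The fit was tested on simulated data.

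The comparison and its 22 gene lists (403 genes tested) were chosen with earlier results of these data known, so lists carry no test. Named genes are the lists' defining genes, 4 further members by p in each tissue list, and the 12 largest called rises and falls with the same sign in all 4 groups. Other named members were picked after their values were seen. Alternatives are described in the closing section.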

Additional observations from a re-analysis of the deposited data

Results flagged for a closer look

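Single arrays stood apart from the other 3 of their replicate number in 29 of 252 groups of 4 arrays examined by Dixon's criterion. About 1 in 20 groups of independent, normally distributed values would meet it. The groups here share arrays and genes, and many of the genes were picked from these values. The count can therefore not be set against chance. Values are log2 levels unless said otherwise.

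PBS replicate 2 stood apart in 9 of these. It was below the other 3 replicate 2 arrays for the epithelial genes Cdh1 (12.02), Krt14 (13.8) and Jup (11.45). It was above them for the mesenchymal gene Prrx1 (12.39), the endothelial gene Kdr (8.56), and Egr3 (11.04), Chsy3 (7.27) and Enpep (9.26), and its 18S signal was 163.7 against 52.9 to 64.7.

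Cyclopamine replicate 1 stood apart from the other replicate 1 arrays in its mean level of dental and oral epithelium genes (11.13 against 10.65 to 10.69) and in Jup (11.39), which were higher, and in the endothelial genes Pecam1 (8.36) and Plvap (9.28), which were lower. Its 18S signal was 2548 and its 3′ to 5′ signal ratios were 0.886 for Gapdh, 6.05 for dap and 5.09 for thr, each above the other 3 arrays.

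40-1a replicate 1 was the lowest of replicate 1 in Krt13 (12.37 against 13.25 to 13.33), the muscle actin gene Acta1 (7.52 against 9.27 to 9.56), Cdh5 (8.28) and Tfap2b (11.47 against 11.55 to 11.56), and in the mean levels of cartilage (7.37) and fat cell genes (8.49). 40-1a replicate 2 was the lowest of its number in Tagln (9.39).

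5E1 replicate 1 was the highest of its number in Shh (12.85 against 12.15 to 12.20) and Egr1 (11.81) and the lowest in Ptch1 (11.06 against 13.23 to 13.47). 5E1 replicate 2 was the lowest in Zc3h3 (6.31) and had a phe spike-in ratio of 2.26 against 1.96 to 1.99.

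The list medians of replicate 2 minus replicate 1 had opposite signs in PBS and 40-1a for skeletal muscle (-0.75 and 2.38) and for the 3 fat cell genes (-1.12 and 1.04). Each value rests on 1 pair of arrays, and the difference between the groups was not tested.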

How the results depend on the processing

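The counts of 284 genes called higher and 473 called lower were 0 and 0 with median centring (which moved the median of all genes from -0.01 to 0.12), with the mean of probe sets and with no trend. The smallest adjusted p was then 0.0668, 0.0524 and 0.0874, with 2905, 2637 and 3263 genes at an unadjusted p under 0.05. They were 164 and 304 with no filter, 18 and 50 over all probe sets, 1261 and 1249 with array weights, and 534 and 784 with no injection term (700 of the 757 shared). Leaving out 1 array gave 0 to 1084 higher and 0 to 866 lower. The cause of these shifts was not tested. The list medians of epithelium (0.59 to 0.82), suprabasal epithelium (0.67 to 1.42), dental mesenchyme (-0.94 to -0.38), fibroblast and matrix (-0.61 to -0.35), endothelium (-0.66 to -0.36) and skeletal muscle (0.29 to 1.36) kept their sign under all 20 alternatives run on them. Not all of these could move a median. The fits with no trend, with a robust variance estimate and with no injection term leave it unchanged by design. Leaving out either array of a pair gives the same median. Xist, not called otherwise, was called at -1.40 without x and s probe sets, and Eif2s3y at 0.41 with array weights (adjusted p = 0.0452). Among named genes Snai2 turned to 0.163 without x and s probe sets. Uncalled genes near 0 also turned: Col1a1 (0.00416), Acta2 (0.0763) and Xist (0.0417) with median centring, Eif2s3y (-0.0763) with the mean of probe sets, and, when 1 array was left out, Barx1 (-0.581 to 0.130), Col1a1 (-0.234 to 0.00387), Acta2 (-0.246 to 0.114, and 0.000921 without either 5E1 array) and Xist (-0.172 to 0.0192).

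The differences of replicate 2 minus replicate 1 correlated across genes at 0.323 to 0.591 between injection groups, except cyclopamine and PBS (0.00157). The groups thus shared part of the shift, apart from cyclopamine with PBS. The labels do not say that the numbers pair the samples. With the replicate block the count of genes called between injections went from 0 to 1. With 1 pair per injection group and 3 residual degrees of freedom, no difference between groups in the size of the shift could be tested, and what the replicate number stands for is not given in the sources used here.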
